A study of Mus musculus with 21 samples.

Results

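The hippocampal subfield markers were 8 genes whose RNA is concentrated in particular fields of the mouse hippocampus. Prox1, C1ql2, Dsp and Tdo2 mark the granule cells of the dentate gyrus, and Fibcd1, Spink8, Wfs1 and Rgs14 mark pyramidal neurons of the CA fields. The genes were chosen by symbol, with earlier results of these data known, and matched to Ensembl gene identifiers. All 8 were found among the 55401 genes with counts and among the 37538 genes with FPKM values, and all 8 passed the filter on low counts in each of the 16 comparisons made.

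Forebrain RNA from 21 mice in 6 groups was compared. The parental groups E2H, E3H and E4H (3 mice each) were homozygous for human APOE2, APOE3 or APOE4 in place of mouse Apoe, on a C57BL6 background, and were taken at 9 to 10 months. The 3 PS19 groups, named PS/E2H for APOE2, PS/E3H for APOE3 and PS/E4H for APOE4 (4 mice each), were also homozygous for these alleles and carried the PS19 transgene, human tau with the P301S mutation driven by the mouse prion promoter, from a line kept on a mixed B6/C3H background. That line was kept heterozygous for the transgene. Its mice were mated with APOE homozygous mice, and the offspring were crossed back to the same APOE line. PS19 mice were taken when their hindlimbs became paralysed. The paper calls the E2H and E3H mice age-matched, and the ages of the sequenced PS19 mice are not given in the sources used here. The tau transgene, paralysis, background strain and any difference in age thus moved together and cannot be told apart. Most mice were male; the study counted 1 female in E4H, 1 in PS/E2H and 2 in PS/E4H, without saying which. Total counts per mouse ran from 59265459 to 75932183.

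In the hippocampal circuit, entorhinal input reaches the granule cells of the dentate gyrus, whose mossy fibres contact CA3 pyramidal neurons, which in turn project to CA1. Each field has its own set of genes, so field markers are used to read the state of a field from bulk RNA. Mice with P301S tau are known for loss of hippocampal neurons late in life, and several of these markers are also made outside the hippocampus, Prox1 in a class of cortical interneurons and Wfs1 in upper cortical layers.

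Per unit of transcript length, the CA marker Wfs1, a membrane protein of the endoplasmic reticulum, was the most abundant of the 8 genes at 29.8 FPKM (SD 5.11, n = 21). FPKM counts fragments relative to transcript length and to all mapped fragments, and is the scale used here to compare levels between genes. Rgs14, a regulator of G protein signalling that marks CA2 and limits synaptic plasticity there, followed at 8.34 FPKM (SD 1.65). Fibcd1 (4.69), C1ql2 (3.90), Spink8 (3.13) and Prox1 (2.81 FPKM) lay in the middle. Dsp at 0.365 FPKM and Tdo2 at 0.295 FPKM were the lowest. Tdo2 was read from 23 to 153 counts per mouse, so its values carry the most counting error of the 8.

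**Figure D1:**
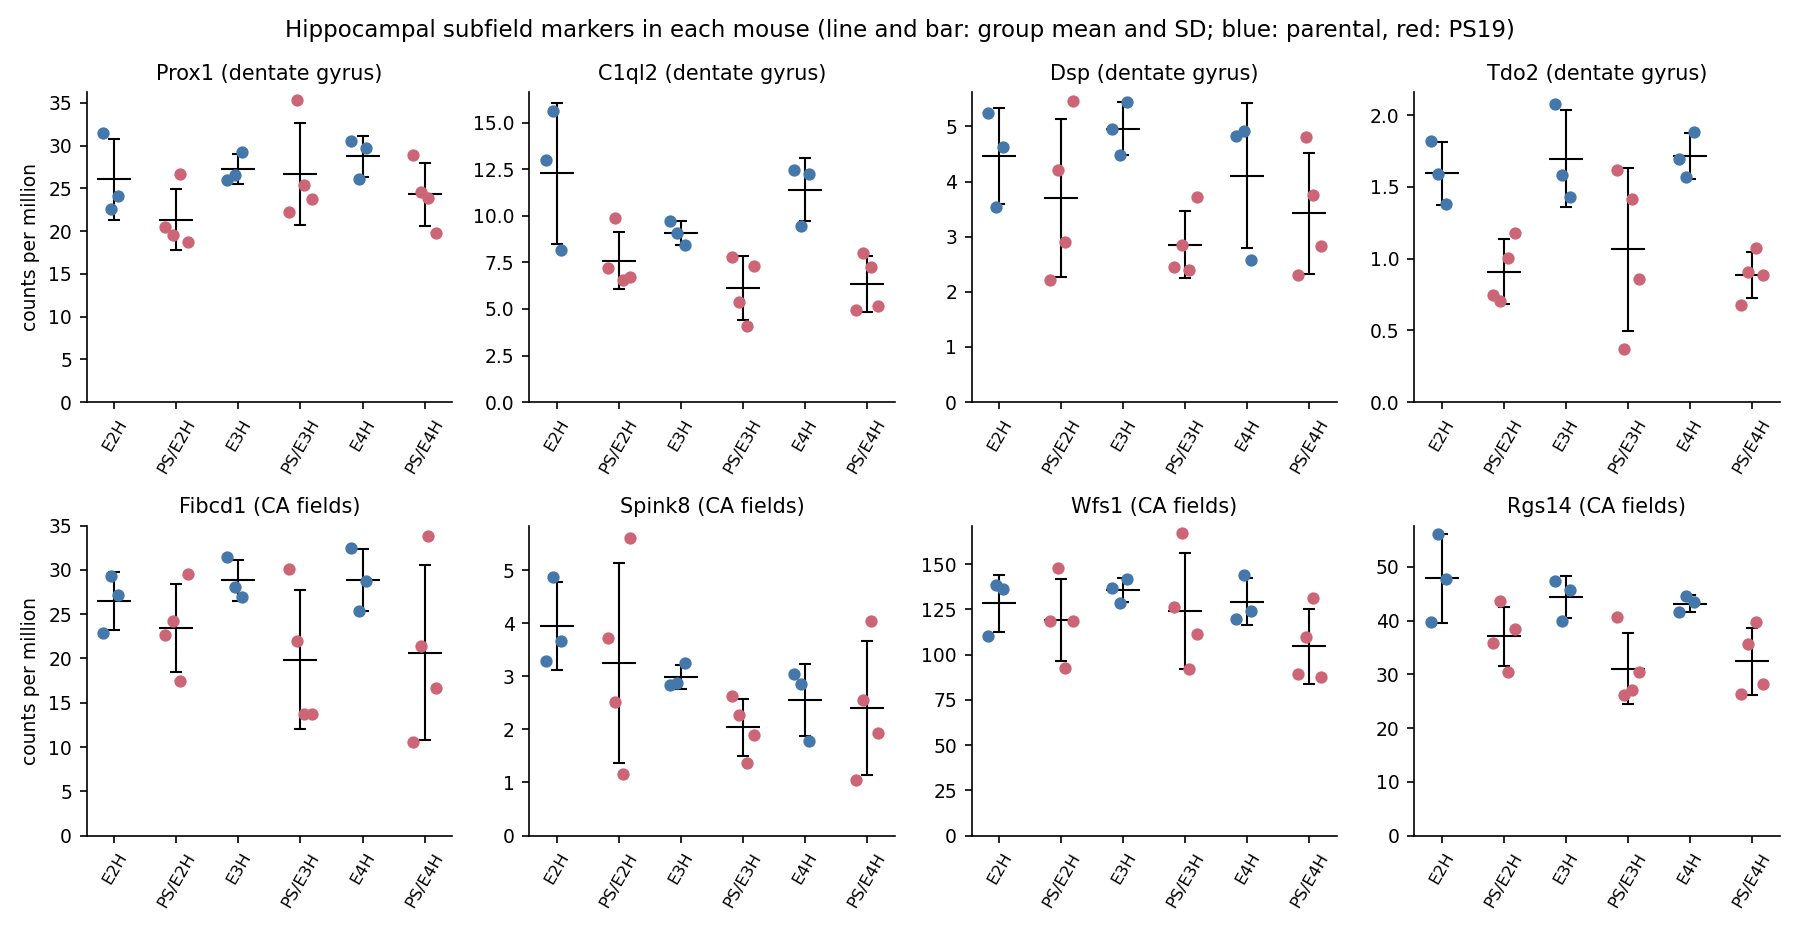
Level of each marker in CPM, its share of the library total (vertical axis, from 0) in each mouse of the 6 groups; the horizontal line is the group mean and the bar is 1 SD (3 parental mice, blue, or 4 PS19 mice, red, per group). C1ql2, Tdo2 and Rgs14 had 11, 10 and 10 of 12 PS19 mice below every parental mouse.

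Across all APOE lines, 3 of the 8 markers were lower in PS19 than in parental mice, namely C1ql2, Tdo2 and Rgs14. Here, passed means an adjusted p below 0.05 in the quasi-likelihood F test of edgeR with Benjamini-Hochberg adjustment over all genes tested, in a fit with APOE line as a covariate. By the same test 9.63% of the 22863 genes tested passed and were lower, against 3 of 8 markers. As the markers were chosen with earlier results of these data known, this is no independent comparison. All 8 log2 fold changes were below 0, with a median of -0.42, while 51.1% of all genes were below 0 and their median was -0.01. After scaling to 5 glutamatergic genes, the markers' median was -0.13, and Prox1 and Wfs1 turned to 0.14 each in that fit, where the median of all genes was 0.31. With a second rule that also asked for at least a 2-fold change, 0 markers passed with edgeR, against 0.367% of genes that passed and were lower and 2.60% in either direction. Without the fold rule 6 markers had an unadjusted p below 0.05, against 32.2% of genes, and DESeq2 passed 4, against 23.7%. In 0 of the 8 markers did the 12 PS19 mice all lie below the 9 parental mice, a pattern seen in 0.149% of genes. In bulk RNA, fewer cells of a type and less RNA per cell cannot be told apart.

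Among the dentate gyrus markers, C1ql2 encodes a secreted C1q domain protein of mossy fibre synapses. Levels within a gene are given as CPM, the gene's share of the library total after correction for composition. C1ql2 was measured at 13.0, 15.6 and 8.19 CPM in E2H mice, 9.74, 9.08 and 8.43 CPM in E3H mice and 12.5, 9.48 and 12.3 CPM in E4H mice. In PS19 mice it was at 7.23, 9.89, 6.56 and 6.73 CPM in PS/E2H, 7.79, 5.38, 4.06 and 7.30 CPM in PS/E3H and 4.96, 8.01, 7.26 and 5.16 CPM in PS/E4H. All PS19 mice but replicate 2 of PS/E2H lay below all parental mice, so the groups met only through that mouse. C1ql2 fell by 0.70 on the log2 scale (SE 0.130, 95% confidence interval -0.97 to -0.43, edgeR adjusted p = 0.000445, and 1.72e-06 to 0.0156 over the other settings), which is 38.5% lower. The order of the group means ran from E2H (12.3 ± 3.78 CPM, SD) and E4H (11.4 ± 1.68) through E3H (9.08 ± 0.654) to PS/E2H (7.60 ± 1.55), PS/E4H (6.35 ± 1.52) and PS/E3H (6.13 ± 1.73). Only the step from E4H to E3H, 2.33 CPM, exceeded the larger SD of the 2 neighbours.

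Tdo2, the tryptophan dioxygenase that opens the kynurenine pathway, showed the largest log2 fold change of the 8 in this fit. Tdo2 stood at 1.82, 1.59 and 1.38 CPM in E2H mice, 2.07, 1.59 and 1.43 CPM in E3H mice and 1.70, 1.57 and 1.88 CPM in E4H mice. PS19 values were 0.749, 0.701, 1.01 and 1.18 CPM in PS/E2H, 1.61, 0.366, 1.42 and 0.855 CPM in PS/E3H and 0.679, 0.906, 1.07 and 0.887 CPM in PS/E4H. Replicates 1 and 3 of PS/E3H reached parental levels and the other 10 PS19 mice lay below every parental mouse. Tdo2 fell by 0.81 on the log2 scale (SE 0.188, interval -1.20 to -0.42, edgeR adjusted p = 0.00328, and 0.000404 to 0.0235 over the other settings), or 43.0%. All 3 parental means (1.59 to 1.71 CPM) were above all 3 PS19 means (0.886 to 1.06 CPM), but no step between neighbours in the order exceeded the larger SD, since PS/E3H mice spread widely (SD 0.565 CPM).

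Dsp and Prox1, the other dentate gyrus markers, did not pass in this fit. Dsp, the desmosomal plaque protein desmoplakin, was at 5.25, 3.53 and 4.63 CPM in E2H, 4.95, 4.48 and 5.45 CPM in E3H and 4.83, 4.91 and 2.58 CPM in E4H mice. In PS19 mice Dsp was at 2.22, 4.20, 2.91 and 5.46 CPM in PS/E2H, 2.46, 2.85, 2.39 and 3.72 CPM in PS/E3H and 2.31, 4.81, 3.75 and 2.83 CPM in PS/E4H. The highest single value of all came from replicate 4 of PS/E2H, and only 4 of 12 PS19 mice lay below every parental mouse. The log2 fold change was -0.45 (SE 0.169, interval -0.80 to -0.10, edgeR adjusted p = 0.0634). Dsp did pass with DESeq2 (adjusted p = 0.0347), and with edgeR when replicate 2 of E2H (0.0366), replicate 3 of E4H (0.0255), replicate 4 of PS/E2H (0.0194) or replicate 2 of PS/E4H (0.0295) was left out. Its adjusted p ran from 0.0347 to 0.545 over the 9 alternatives, DESeq2 included, and from 0.0194 to 0.123 over the fits without 1 mouse. Prox1, the homeodomain factor that sets granule cell identity, ranged from 22.6 to 31.5 CPM in parental mice (median 26.5) and from 18.7 to 35.4 CPM in PS19 mice (median 23.8). The highest value was in a PS19 mouse, replicate 2 of PS/E3H. Its log2 fold change was -0.19 (SE 0.0903, interval -0.38 to -0.00, edgeR adjusted p = 0.152), and -0.25 with an adjusted p of 0.0269 without that mouse. Neighbours in the order of group means did not differ beyond the larger SD in Prox1 or Dsp at any of the 5 steps.

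Promoter sequence was at hand for 6 of the 8 markers, from 250 bases before to 50 bases after the start site, from RefSeq on build GRCm38.p6; Spink8 and Rgs14 were the markers without one. Windows of 3 dentate gyrus markers are shown because C1ql2 and Tdo2 passed across lines and Dsp is the marker that passed in the E3H line. The C1ql2 window is chr1:120340332-120340631 on the plus strand, that of Tdo2 is chr3:81975679-81975978 on the minus strand and that of Dsp is chr13:38151044-38151343 on the plus strand. Capitals mark matches to the E-box letters CANNTG, the core bound by basic helix-loop-helix factors, searched on both strands.
C1ql2: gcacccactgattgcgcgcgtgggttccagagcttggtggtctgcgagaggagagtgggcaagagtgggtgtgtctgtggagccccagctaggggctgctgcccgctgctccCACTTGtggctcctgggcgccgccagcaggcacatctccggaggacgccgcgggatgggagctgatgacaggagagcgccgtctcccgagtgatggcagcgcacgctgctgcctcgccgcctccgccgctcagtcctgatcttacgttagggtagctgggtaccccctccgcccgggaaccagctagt
Tdo2: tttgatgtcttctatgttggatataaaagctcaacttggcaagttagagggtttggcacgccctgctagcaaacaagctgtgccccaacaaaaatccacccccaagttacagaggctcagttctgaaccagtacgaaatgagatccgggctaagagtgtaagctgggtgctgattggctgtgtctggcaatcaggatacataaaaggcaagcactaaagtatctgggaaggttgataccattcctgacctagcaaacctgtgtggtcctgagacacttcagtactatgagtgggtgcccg
Dsp: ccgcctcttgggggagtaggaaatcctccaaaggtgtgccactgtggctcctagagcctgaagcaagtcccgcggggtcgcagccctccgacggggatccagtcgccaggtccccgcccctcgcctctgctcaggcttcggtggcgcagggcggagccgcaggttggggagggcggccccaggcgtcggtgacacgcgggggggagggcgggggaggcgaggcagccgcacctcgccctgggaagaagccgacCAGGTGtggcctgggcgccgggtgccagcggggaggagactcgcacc
C1ql2 held 1 E-box at -138 from the start site, Dsp held 1 at position 3 and Tdo2 held 0, while 72.3% of the 32851 promoters of that length held at least 1. The letters TATAAA, held by 13.6% of promoters, matched Tdo2 once at -229 and neither C1ql2 nor Dsp. The letters TGACG, the core of the cyclic AMP response element, were held by 20.8% of promoters and by 0 of these 3 windows. A match is a description of the letters and not of binding. GC content was 67.3% in the C1ql2 window, 73% in the Dsp window and 47.7% in the Tdo2 window. The genes themselves lie on GRCm38 at chr1:120340582-120343174 (C1ql2), chr3:81957090-81976202 (Tdo2) and chr13:38151294-38198577 (Dsp) in GENCODE M21, all protein coding. The Tdo2 window lies wholly inside its gene, so the RefSeq start site used for it is not the outer end of the gene in GENCODE M21. Dsp is overlapped on the other strand by Gm10129, and 4.66% of its 50-base windows are shared with that gene.

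Among the CA markers, Rgs14 was the one that passed in the fit across lines. Rgs14 stood at 39.7, 56.1 and 47.7 CPM in E2H mice, 47.4, 40.0 and 45.7 CPM in E3H mice and 41.5, 44.6 and 43.4 CPM in E4H mice. PS19 mice had 35.8, 43.7, 30.4 and 38.4 CPM in PS/E2H, 40.6, 26.1, 27.2 and 30.4 CPM in PS/E3H and 26.3, 35.6, 39.7 and 28.1 CPM in PS/E4H. Replicate 2 of PS/E2H and replicate 1 of PS/E3H overlapped the parental range, and 10 of 12 PS19 mice lay below it. Rgs14 fell by 0.43 on the log2 scale (SE 0.0881, interval -0.61 to -0.25, edgeR adjusted p = 0.00109), or 25.9%. After scaling to the glutamatergic genes the value was -0.13 and edgeR no longer called it (adjusted p = 0.140, the highest among its settings, which began at 2.04e-05). The median of all genes was 0.31 in that fit. Relative to that median Rgs14 was at -0.44, and at -0.43 relative to the median in the fit without this scaling. Scaling shifts all genes by nearly the same amount, so this distance hardly changes by construction and is no check on the lost call. In the order of group means, E2H (47.8 ± 8.21 CPM, SD), E3H (44.4 ± 3.89) and E4H (43.2 ± 1.54) stood above PS/E2H (37.1 ± 5.54), PS/E4H (32.4 ± 6.28) and PS/E3H (31.1 ± 6.63). The step from E4H to PS/E2H, 6.09 CPM, was the only one beyond the larger SD.

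Fibcd1, Spink8 and Wfs1, which mark CA1, did not pass. Fibcd1, a receptor with a fibrinogen-like domain, was at 22.9 to 32.4 CPM in parental mice (median 28.0). Its PS19 values were 22.6, 24.2, 17.5 and 29.6 CPM in PS/E2H, 30.1, 21.9, 13.8 and 13.7 CPM in PS/E3H and 10.6, 21.4, 33.9 and 16.7 CPM in PS/E4H. The lowest and the highest Fibcd1 values of all 21 mice were both in PS/E4H, and 8 of 12 PS19 mice lay below every parental mouse. Its log2 fold change was -0.40 (SE 0.162, interval -0.73 to -0.06, edgeR adjusted p = 0.0856). The call was made without replicate 1 of PS/E3H (edgeR adjusted p = 0.0346) or replicate 3 of PS/E4H (0.0206), and by limma on FPKM values (0.0440 and 0.0430 with the 2 pseudocounts). The range was 0.0430 to 0.503 over the 9 alternatives, limma included, and 0.0206 to 0.154 over the fits without 1 mouse. Spink8, a Kazal-type serine protease inhibitor, was at 1.78 to 4.88 CPM in parental mice (median 3.03). PS19 mice had 3.71, 2.51, 1.17 and 5.61 CPM of Spink8 in PS/E2H, 2.63, 2.28, 1.37 and 1.90 CPM in PS/E3H and 1.05, 2.55, 4.05 and 1.93 CPM in PS/E4H. They reached both below and above the parental range, with a log2 fold change of -0.31 (SE 0.227, interval -0.78 to 0.16, edgeR adjusted p = 0.385). Wfs1 ranged from 110.3 to 144.0 CPM in parental mice (median 136.3) and from 87.4 to 167.2 CPM in PS19 mice (median 114.9). Its log2 fold change was -0.18 (SE 0.0966, interval -0.38 to 0.02, edgeR adjusted p = 0.208). For these 3 genes no step in the order of group means exceeded the larger SD.

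**Figure D2:**
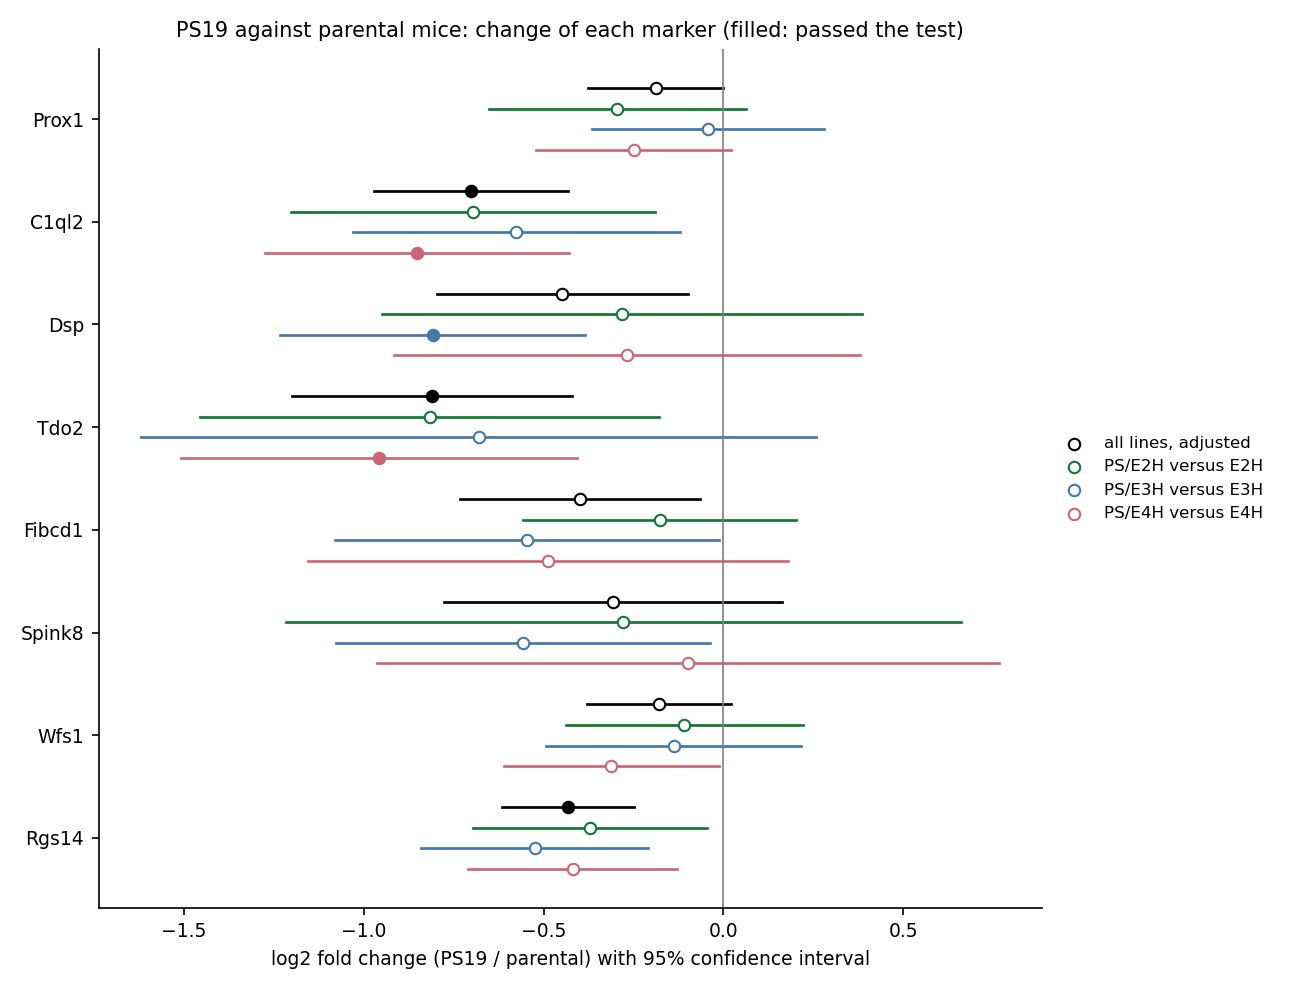
Log2 fold change of each marker, PS19 over parental (horizontal axis), with its 95% confidence interval, in all lines with APOE line as covariate (black) and within E2H, E3H and E4H mice (green, blue and red); filled points passed at an adjusted p below 0.05 in edgeR. All 32 points lie below 0; after scaling to the glutamatergic genes Prox1 and Wfs1 turned above 0 in the fit across lines (0.14 each), where the median of all genes was 0.31.

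Each PS19 group was then set against its own parental line, with only those mice in the fit, so these comparisons reuse the mice of the fit across lines. PS/E2H and E2H mice differed in 0 markers with edgeR, where 0.0825% of 20617 genes passed and were lower. At an unadjusted p below 0.05 there were 3 markers, C1ql2 (log2 fold change -0.70), Tdo2 (-0.82) and Rgs14 (-0.37), against 10.7% of genes, and DESeq2 passed 0, against 3.35%. With the 2-fold rule 0 markers passed, against 0.034% of genes that passed and were lower and 0.485% in either direction. Tdo2 was the 1 marker of 8 with all PS/E2H mice below all E2H mice, against 5.05% of genes. The markers' median was -0.29 and that of all genes -0.02. Spink8 in this line rested on single mice, at -0.28 with all mice and 0.00 without replicate 3 of PS/E2H.

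Between PS/E3H and E3H mice, Dsp passed and was lower, 1 of 8 markers against 2.02% of 21251 genes. It fell by 0.81 on the log2 scale (SE 0.191, interval -1.23 to -0.38, edgeR adjusted p = 0.0375). All 4 PS/E3H mice (2.39 to 3.72 CPM) lay below all 3 E3H mice (4.48 to 5.45 CPM). C1ql2 and Spink8 did not overlap either, so 3 of 8 markers were separated, against 8.75% of genes. The Dsp call was lost without replicate 1 (edgeR adjusted p = 0.143), 2 (0.0933) or 3 (0.139) of E3H and without replicate 2 (0.0706) or 3 (0.0788) of PS/E3H. It was also lost in 7 of 10 other settings, with adjusted p from 0.00279 to 0.342. Rgs14, at -0.52, had an edgeR adjusted p of 0.0601. Replicate 1 of PS/E3H had the highest C1ql2, Fibcd1, Rgs14, Spink8 and Tdo2 of its group. Without it, C1ql2 (edgeR adjusted p = 0.0411), Fibcd1 (0.0126) and Rgs14 (0.00139) passed beside Dsp. In that fit 4 of 8 markers and 2584 genes passed in either direction, against 1 of 8 and 1141 with all mice. Leaving that mouse out lowers the PS/E3H means of C1ql2, Fibcd1 and Rgs14 by construction. In summed FPKM that mouse was also lowest of its group in microglial (280.3, others 444.9 to 501.2) and astrocyte genes (864.5, others 1104 to 1194). It was highest in glutamatergic genes (902, others 564.1 to 688.9). The log2 fold change of Prox1 was -0.04 with all mice, 0.04 without that mouse and 0.01 without replicate 3 of E3H or replicate 4 of PS/E3H. At an unadjusted p below 0.05 there were 5 markers (21.4% of genes), DESeq2 passed 2 (11.6%), and with the 2-fold rule edgeR passed 0, against 0.127% of genes that were lower and 1.32% in either direction. The median of the 8 markers was -0.55, and that of all genes was -0.00.

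Between PS/E4H and E4H mice, C1ql2 and Tdo2 passed and were lower, 2 of 8 markers against 6.98% of 20844 genes. C1ql2 fell by 0.85 (SE 0.190, interval -1.27 to -0.43, edgeR adjusted p = 0.0149) and Tdo2 by 0.96 (SE 0.248, interval -1.51 to -0.41, edgeR adjusted p = 0.0277) on the log2 scale. All 4 PS/E4H mice lay below all 3 E4H mice in C1ql2, Tdo2 and Rgs14, 3 of 8 markers against 13.8% of genes. Rgs14 was at -0.42 with an edgeR adjusted p of 0.0551. The C1ql2 call was lost without replicate 1 (edgeR adjusted p = 0.0705) or 3 (0.0544) of E4H, and in 2 of 10 other settings (0.000195 to 0.129). The Tdo2 call was lost without replicate 1 (0.0886), 2 (0.0810) or 3 (0.0918) of E4H or replicate 2 (0.0561) or 4 (0.0554) of PS/E4H by edgeR adjusted p, and in 3 of 10 other settings (0.00760 to 0.164). Replicate 3 of PS/E4H had the highest Fibcd1, Spink8, Wfs1 and Rgs14 of its group. Without it, Fibcd1 (edgeR adjusted p = 0.0305), Wfs1 (0.0223) and Rgs14 (0.0130) passed beside C1ql2 and Tdo2, 5 of 8 markers. Leaving it out lowers the PS/E4H means of Fibcd1, Wfs1 and Rgs14 by construction. Over the fits without 1 mouse 1189 to 3402 genes passed in either direction, against 3252 with all mice. Spink8 was at -0.10 with all mice and -0.47 without replicate 3 of PS/E4H. It was at 0.15 without replicate 1 of PS/E4H and 0.05 without replicate 1 of E4H. At an unadjusted p below 0.05 there were 4 markers (30.1% of genes), DESeq2 passed 3 (21.9%), and with the 2-fold rule edgeR passed 0, against 0.581% of genes that were lower and 2.98% in either direction. The median of the 8 markers was -0.37, and 0.05 after scaling to the glutamatergic genes, where 4 of 8 were below 0 and the median of all genes was 0.42.

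The PS19 difference of the 8 markers was then compared between APOE lines by an interaction term. With edgeR, 0 of 8 markers and 0% of genes passed in each of the 3 interactions (E2H minus E3H, E4H minus E3H, E4H minus E2H). At an unadjusted p below 0.05 there were 0 markers and 1265, 847 and 2223 genes, and DESeq2 passed 0 markers and 12, 9 and 107 genes. Dsp showed the largest differences between lines, 0.53 for E2H minus E3H (interval -0.26 to 1.32) and 0.54 for E4H minus E3H (interval -0.25 to 1.33). For C1ql2 they were -0.12, -0.28 and -0.16, and for Tdo2 -0.13, -0.28 and -0.14. All 24 intervals held 0, and the widest, that of Spink8 for E4H minus E2H, ran from -1.17 to 1.53. A Dsp, C1ql2 or Tdo2 call in 1 line was thus not shown to differ from the other lines.

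APOE lines were also compared with each other at a fixed tau genotype, in comparisons that share groups. None of the 8 markers passed with edgeR in the parental mice (0.178% of genes for E2H against E3H, 0.162% for E4H against E3H, 0.216% for E4H against E2H) or in the PS19 mice (0.113%, 0.0197% and 0.119% in the same order). The same held across all mice with tau as a covariate (3.31%, 0.122% and 0.634% of genes). DESeq2 passed 0 markers in all 9 comparisons, where it passed from 0.172% to 9.01% of genes. At an unadjusted p below 0.05, edgeR gave 0 markers in 6 comparisons, where 5.77% to 16.5% of genes had such a p. It gave 1 of 8 in each of the other 3, E4H against E3H and E4H against E2H in parental mice and E2H against E3H across all mice. There 6.67%, 12.4% and 21.5% of genes had such a p. C1ql2 was 0.33 higher on the log2 scale in E4H than in E3H mice (edgeR adjusted p = 0.677) and 0.36 higher in E2H than in E3H mice of both tau genotypes (edgeR adjusted p = 0.188). Spink8 was at -0.62 in E4H against E2H (edgeR adjusted p = 0.388). The 3 parental E2H mice had 3.29, 4.88 and 3.66 CPM of Spink8, above the E3H mice at 2.83, 2.88 and 3.24 CPM and the E4H mice at 3.03, 2.85 and 1.78 CPM. The E2H mice did not overlap either line, and E3H overlapped E4H. Spink8 was the 1 marker of 8 separated in each of these comparisons, where 23.3% of genes were separated between E2H and E3H and 21.3% between E2H and E4H, so 1 of 8 was below the share of all genes. Over the 9 comparisons the largest log2 difference, whatever its sign, was 0.66 for Spink8, 0.43 for C1ql2, 0.37 for Dsp, 0.33 for Prox1, 0.27 for Tdo2, 0.25 for Wfs1 and Rgs14 and 0.24 for Fibcd1.

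**Figure D3:**
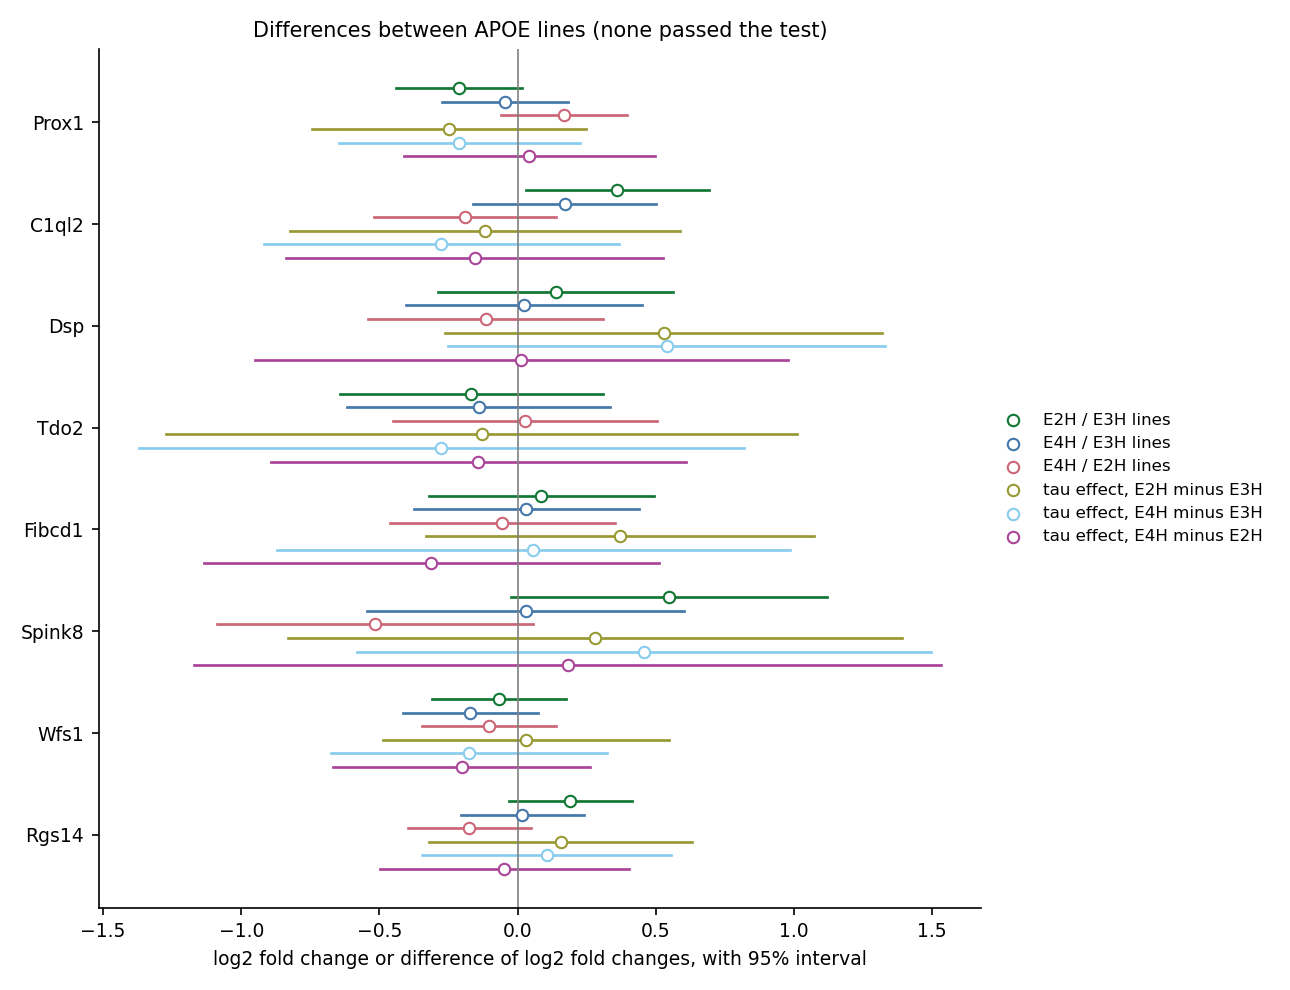
Log2 fold change of each marker between APOE lines with tau as covariate (3 upper points per gene) and difference of the PS19 effect between lines (3 lower points), with 95% confidence intervals on the horizontal axis. None of the 48 points passed at an adjusted p below 0.05 in edgeR, and the interaction intervals are wide, such as -1.17 to 1.53 for Spink8 in E4H minus E2H.

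Pooled over the 3 lines, the coefficient of variation of CPM was higher in the 12 PS19 than in the 9 parental mice for 8 of 8 markers and 59.7% of genes, a difference that was not tested. Within single lines it was higher in the PS19 group for 20 of 24 pairs of marker and line, against 61.2% of all pairs of gene and line, and not for C1ql2, Prox1 and Rgs14 in E2H or Dsp in E4H. The pooled value went from 10.4% to 34.0% in Fibcd1, from 13.4% to 35.6% in Tdo2, from 26.1% to 51.8% in Spink8 and from 8.56% to 21.3% in Wfs1. C1ql2 went from 30.8% to 20.4% in E2H, from 7.20% to 28.2% in E3H and from 14.7% to 23.9% in E4H.

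Correlations between markers were taken over the 21 mice after each group's mean log2 CPM was removed, for all 28 pairs, with permutation p-values adjusted over the 28 (Benjamini-Hochberg). All 6 pairs of CA markers were positive, with Pearson's r from 0.57 to 0.79 and a median of 0.64. Fibcd1 and Spink8 had r = 0.79 (permutation p = 0.0004, adjusted 0.0112) and Spearman's rho = 0.74 (permutation p = 0.00218, adjusted 0.0610), and r = 0.67 without the 2 mice farthest in Fibcd1. This was the only pair of 28 to pass on r, and 0 passed on rho. Within PS19 mice its r was 0.83 and within parental mice 0.31. Fibcd1 and Rgs14 followed with r = 0.74 (permutation p = 0.00362, adjusted 0.0507) and rho = 0.68 (permutation p = 0.0111, adjusted 0.0895), and r = 0.65 without the farthest 2. The 6 pairs of dentate gyrus markers ran from -0.47 to 0.22 with a median of -0.05, and 3 were positive. Pairs across fields ran from -0.61 for Prox1 with Rgs14 (adjusted permutation p = 0.131) to 0.63 for C1ql2 with Rgs14 (adjusted permutation p = 0.109).

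**Figure D4:**
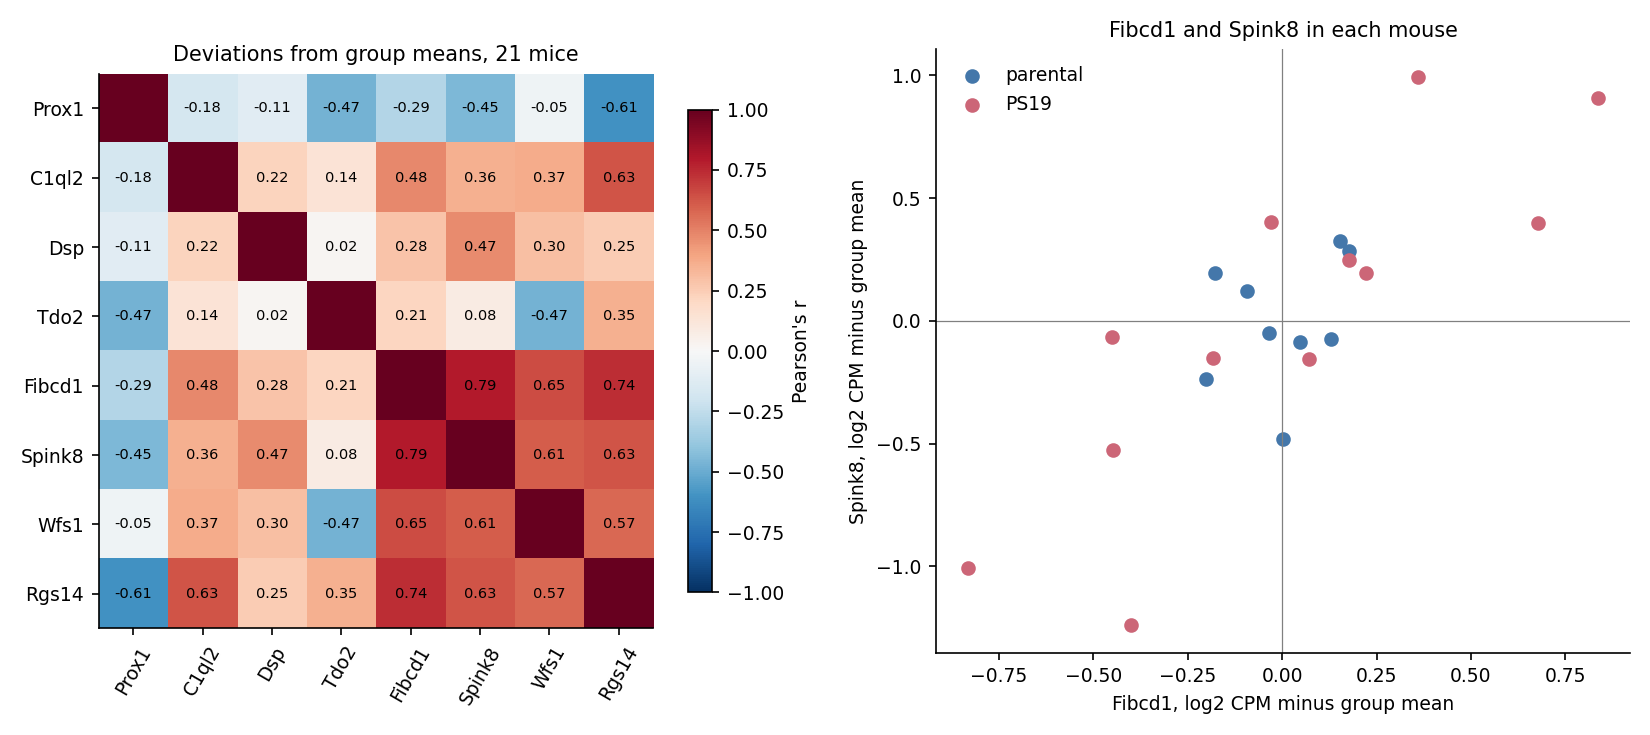
Left, Pearson's r for all 28 pairs of markers over 21 mice after group means were removed, with the colour scale from -1 to 1; right, Fibcd1 against Spink8 as log2 CPM minus the group mean in each mouse. The CA block is positive throughout (0.57 to 0.79), and the mice farthest from 0 are PS19 mice.

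In 9 of 12 PS19 and 3 of 9 parental mice all 4 CA markers lay on the same side of their group means. Among PS19 mice, replicates 1 and 2 of PS/E2H and replicate 2 of PS/E3H were mixed, and the last had the highest Wfs1 (167.2 CPM) and the lowest Rgs14 (26.1 CPM) of all 21 mice. Averaged over Fibcd1, Spink8, Wfs1 and Rgs14, replicate 3 of PS/E4H stood 0.60 log2 units above its group mean and replicate 1 of PS/E4H 0.58 below it (-0.58). Replicate 3 of PS/E2H was at -0.57 and replicate 4 at 0.36, and in PS/E3H replicate 1 was at 0.39 and replicate 3 at -0.39. Parental mice stayed between -0.23 and 0.21. The dentate gyrus average moved less in the same mice, by 0.17 and -0.23 in replicates 3 and 1 of PS/E4H.

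The balance between the fields was taken as the mean log2 CPM of the 4 dentate gyrus markers minus that of the 4 CA markers. Group means were -2.04 in E2H, -1.99 in E3H, -1.87 in E4H, -2.28 in PS/E2H, -2.09 in PS/E3H and -2.06 in PS/E4H. Parental mice averaged -1.97 (SD 0.213, n = 9) and PS19 mice -2.14 (SD 0.343, n = 12), a gap within the spread of either set. Taken on log2 FPKM, the balance was -2.648 (SD 0.201) in parental and -2.745 (SD 0.333) in PS19 mice, a smaller gap. PS/E3H minus E3H was -0.105 on CPM and -0.004 on FPKM. The dentate gyrus average itself was between 2.59 and 2.99 in parental mice and between 1.94 and 2.45 in PS19 mice, with no overlap. The CA average ran from 4.52 to 5.02 in parental and from 3.68 to 4.88 in PS19 mice, with overlap.

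Other genes tracked single markers closely over the 21 mice. The 3 genes with the highest Pearson correlation of log2 CPM are given for each marker, with r after removal of group means in brackets. Rgs14 was closest to Camkv (0.96, [0.94]), Gm42517 (0.94, [0.86]) and Fam19a1 (0.94, [0.87]). Fibcd1 was closest to Sertm1 (0.91, [0.90]), Myh7 (0.89, [0.87]) and Cpne6 (0.87, [0.87]). Spink8 went with Rnf166 (0.88, [0.87]), Entpd6 (0.84, [0.83]) and Cabp7 (0.84, [0.82]), and Wfs1 with Rnft2 (0.79, [0.76]), Sema5b (0.78, [0.70]) and Crtac1 (0.78, [0.75]). These CA markers lost little of their likeness when group means were removed. Tdo2 was closest to Cpne4 (0.89, [0.77]), Ccdc112 (0.86, [0.71]) and Kctd1 (0.84, [0.76]), and C1ql2 to Armcx2 (0.85, [0.59]), Ap3s1 (0.85, [0.66]) and Tpm1 (0.85, [0.77]). Prox1 went with 5330434G04Rik (0.86, [0.83]), Cxxc4 (0.83, [0.74]) and Pik3c2b (0.81, [0.72]), and Dsp with Dok3 (0.80, [0.72]), Zmynd10 (0.77, [0.66]) and Gm43825 (0.74, [0.81]). Likeness in C1ql2 dropped most without group means.

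Longer lists of hippocampal genes were read beside the markers in the fit across lines. Of 10 other dentate granule genes, 6 passed and were lower, among them Plk5 (log2 fold change -0.81), Rfx3 (-0.53), Trpc6 (-0.59) and Lct (-1.13), and 1 was higher, Maml2 (0.30). The list's median was -0.30. Summed FPKM of these genes was 56.4, 59.7 and 63.2 in parental mice (lowest, median, highest) and 45.8, 49.3 and 54.8 in PS19 mice, with no overlap, and Calb1 was the most abundant (25.4 FPKM). The 4 dentate gyrus markers summed to 7.14, 8.37 and 10.4 FPKM in parental and 5.19, 6.44 and 7.03 FPKM in PS19 mice, again with no overlap. The 4 CA markers summed to 43.5, 52.1 and 55.4 FPKM in parental and 30.9, 42.4 and 54.5 FPKM in PS19 mice, which overlapped. How often sums of other genes separate the mice was not counted. Of 7 other CA1 genes 4 were lower and 0 higher (median -0.25), Neurod6 (-0.69), Mpped1 (-0.25) and Man1a (-0.18) among them. Their sum was 86.8, 105.5 and 113.6 FPKM in parental and 60.5, 72.6 and 105.5 FPKM in PS19 mice, led by Mpped1. Of 6 other CA2 genes 2 were lower, Ntf3 (-0.93) and Pcp4 (-0.17), with a median of -0.06 and sums of 253.5, 286.2 and 353.3 against 232.6, 251.9 and 311.1 FPKM, led by Pcp4. Of 6 CA3 genes 3 were lower, Cpne4 (-0.36), Grp (-0.57) and Iyd (-0.94), with a median of -0.23 and sums of 33.4, 39.1 and 41.0 against 27.3, 31.9 and 39.1 FPKM, led by Bok. Immature granule neuron genes gave 1 of 5 lower, Neurod1 (-0.51), with a median of 0.02 and sums of 5.23, 7.41 and 8.23 against 5.22, 6.09 and 6.69 FPKM, led by Neurod1. Genes of the ventral hippocampus gave 2 of 5 lower, Trhr (-0.65) and Coch (-0.19), and 1 higher, Gpc3 (0.45), with a median of -0.03 and sums of 23.0, 25.7 and 27.9 against 21.01, 25.2 and 27.4 FPKM, led by Coch. Of 7 granule cell genes known to shift with hyperactivity, 1 passed, Calb1 (-0.23), with a median of -0.15 and sums of 248.4, 268.1 and 289.7 against 199.1, 277 and 330.4 FPKM, led by Penk. Penk is also on the striatal list and Calb1 on that of dentate granule genes, so these lists share genes. Penk averaged 120.2 FPKM and Pcp4 226.1 FPKM, a large part of their lists' sums. Forebrain RNA does not show which cells such a sum comes from.

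**Figure D5:**
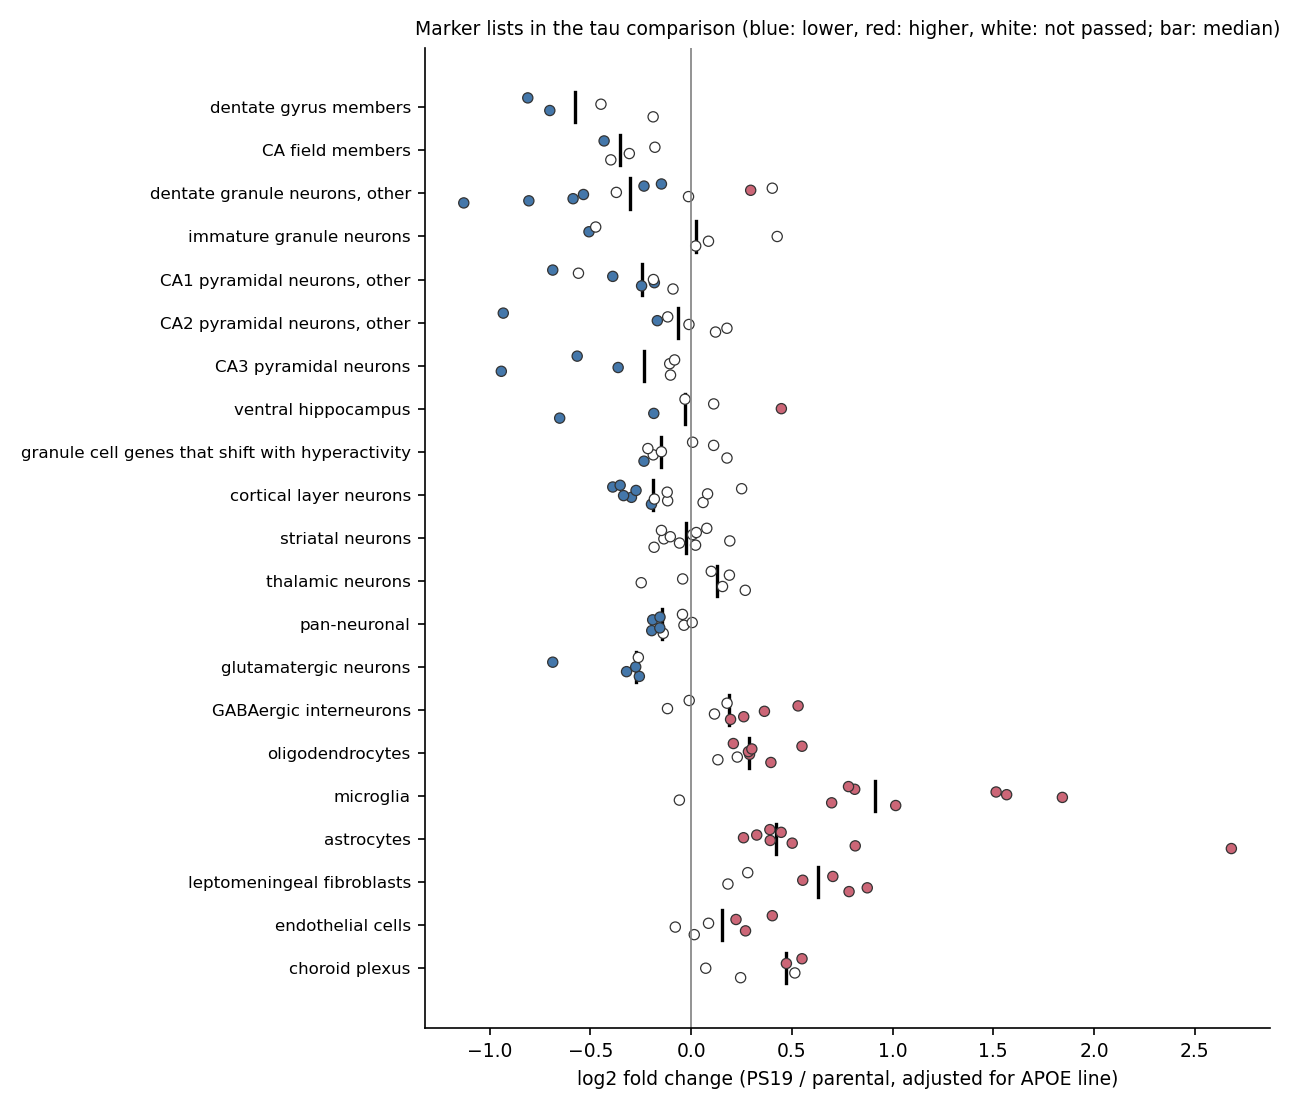
Log2 fold change, PS19 over parental with APOE line as covariate (horizontal axis), of each gene in 21 marker lists; blue points passed and were lower, red points passed and were higher, white points did not pass, and the bar is the list's median. Medians run from -0.57 in the dentate gyrus markers to 0.91 in microglia; after scaling to the glutamatergic genes Prox1 and Wfs1 turned above 0 (0.14 each, with the median of all genes at 0.31).

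Markers of other regions and cell types moved in the same comparison, and their part in the results for the 8 markers was not tested. None of the genes in any list had a count of 0 in any mouse. Of all genes tested, 9.63% passed and were lower and 11.4% passed and were higher. Sums below are FPKM, as lowest, median and highest of the parental and then of the PS19 mice. Glutamatergic genes passed and were lower in 4 of 5, Neurod6, Camk2a (-0.32), Slc17a7 (-0.26) and Neurod2 (-0.27), and summed to 734.9, 862.6 and 961.4 against 564.1, 693.4 and 902, led by Nrgn. Of 8 pan-neuronal genes 4 were lower, Snap25 (-0.20), Map2 (-0.19), Syt1 (-0.16) and Stmn2 (-0.15), and the sums led by Snap25 were 1090, 1137 and 1165 against 994.3, 1033 and 1137. Cortical layer genes were lower in 6 of 12, among them Tbr1 (-0.35), Bcl11b (-0.34) and Etv1 (-0.27), with sums of 110.0, 121.4 and 144.8 against 89.3, 111.5 and 126.6, led by Lamp5. With edgeR, 0 of 10 striatal genes passed (0 at an unadjusted p below 0.05, 0 with DESeq2), with sums of 295.2, 335.7 and 400.3 against 229.5, 334.6 and 438.7, led by Penk (0.01). With edgeR, 0 of 6 thalamic genes passed as well (1 at an unadjusted p below 0.05, 0 with DESeq2), with sums of 33.9, 48.9 and 77.9 against 38.9, 55.2 and 65.7, led by Prkcd (0.27).

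GABAergic interneuron genes were higher in 4 of 8, Vip (0.53), Pvalb (0.36), Gad2 (0.26) and Gad1 (0.20), with sums of 316.5, 327.4 and 393.9 against 321.3, 354 and 389.7, led by Sst. All 8 astrocyte genes were higher, Gfap (2.68), Aldh1l1 (0.50), Aldoc (0.45) and Slc1a3 (0.39) among them, and summed to 564.6, 626.4 and 706.6 against 864.5, 1130 and 1332, with Aldoc the most abundant. Microglial genes were higher in 7 of 8, C1qa (1.84), Tyrobp (1.57), Ctss (1.51) and Csf1r (0.81) among them, with sums of 145.1, 162 and 207 against 280.3, 451 and 600.6, led by Ctss. Of 8 oligodendrocyte genes 6 were higher, Cldn11 (0.55), Mbp (0.40), Cnp (0.30) and Mobp (0.29) among them, with sums of 801.7, 976.1 and 1104 against 927.5, 1152 and 1465, led by Mbp. Leptomeningeal genes were higher in 4 of 6, Col1a2 (0.87), Col1a1 (0.78), Igf2 (0.70) and Slc6a13 (0.55), summing to 10.4, 19.1 and 25.5 against 24.4, 29.7 and 39.9, led by Igf2. Endothelial genes were higher in 3 of 6, Ly6c1 (0.40), Pecam1 (0.27) and Slco1a4 (0.22), and choroid plexus genes in 2 of 5, Aqp1 (0.55) and Clic6 (0.47). Endothelial sums were 40.3, 42.2 and 52.7 against 38.7, 50.8 and 59.5, led by Ly6c1, and choroid plexus sums were 319.1, 445.8 and 557 against 286.9, 493 and 875.2, led by Ttr.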

How the data were processed

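Bulk forebrain RNA was measured in 21 separate mice, grouped by their labels. Stranded poly(A) libraries were sequenced as read pairs on a NovaSeq instrument, and the authors trimmed them with Cutadapt, aligned them with HISAT2 (GRCm38 p5 in the processing notes) and assembled them with StringTie. The deposited counts are whole numbers per gene without normalization; how they were derived is not given in the sources used here. The deposited FPKM values were computed by StringTie. The 8 markers and the 21 lists were chosen with earlier results of these data known.

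From the counts, edgeR 4.0.16 (R 4.3.3) was run with TMM factors, its filter on low counts and the quasi-likelihood F test, with Benjamini-Hochberg adjustment over all genes tested. CPM uses the TMM library sizes. Counts ran from 59265459 to 75932183 per mouse. None of the 27 replicate pairs was identical, and chi-square per degree of freedom was at least 19.2 in each. Named genes are the 8 markers, in each list the genes that passed (at most the 4 with the smallest adjusted p, otherwise the most abundant), and the 3 genes most like each marker; 1 list gene that passed is not reported here. Correlations used 100000 permutations within groups (scipy 1.17.1). Figures were drawn with matplotlib 3.10.9. Gene positions came from GENCODE M21.

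Alternatives were DESeq2 1.42.0, other scaling factors, no filter, limma 3.58.1 on log2 FPKM with 1 or 0.1 added, the replicate number as a block, 1 fit on all 6 groups, and each mouse left out. Strand use in counting is not stated, so reads shared with Gm10129 (Dsp) or Prox1os (Prox1) cannot be told apart.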

Additional observations from a re-analysis of the deposited data

How the results depend on the processing

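C1ql2 and Tdo2 passed across lines in all 9 alternatives and in all 21 fits without 1 mouse, and Rgs14 in all 21 and in 8 of 9. No member passed between APOE lines or in an interaction under any setting run. For the changes below, the cause was not tested. C1ql2 across lines went from -0.70 to -0.40 and Tdo2 from -0.81 to -0.53 with the glutamatergic scaling. The median of all genes was 0.31 in that fit. With limma on log2(FPKM + 1), Tdo2 was at -0.19. Across lines, Dsp also passed with DESeq2 (-0.45) and with the replicate block (-0.57), and Fibcd1 with limma on log2(FPKM + 1) (-0.38) and log2(FPKM + 0.1) (-0.47). Without 1 mouse, the log2 fold change across lines ran from -0.25 to -0.14 in Prox1, from -0.53 to -0.40 in Dsp and from -0.50 to -0.33 in Fibcd1. Within lines it ran from -0.68 to 0.002 for Spink8 in E2H, from -0.21 to 0.038 for Prox1 in E3H and from -0.47 to 0.15 for Spink8 in E4H.

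Scaling to the 8 pan-neuronal or the 5 glutamatergic genes was chosen after seeing the data. It moved the median log2 fold change of all genes across lines by 0.13 and 0.31. Lower calls went from 2202 of 4806 (45.8%) to 667 of 6683 (9.98%) and 151 of 9793 (1.54%). With the glutamatergic scaling, Rgs14 was at -0.13 and did not pass, and Prox1 (0.14) and Wfs1 (0.14) turned above 0 across lines, below the median of all genes (0.31). Within lines it turned Wfs1 in E2H (0.042), and Prox1 (0.38) and Wfs1 (0.26) in E3H. In E4H it turned Prox1 (0.18), Dsp (0.17), Spink8 (0.28) and Wfs1 (0.10). The medians of all genes were 0.14 in E2H, 0.38 in E3H and 0.42 in E4H, and none of these markers stood above them. Scaling shifts all genes by nearly the same amount, so markers below the median stay there, which is no check on these turns. The pan-neuronal scaling turned Wfs1 in E2H (0.035), Prox1 in E3H (0.09) and Spink8 in E4H (0.051), with medians of all genes of 0.13, 0.12 and 0.16.

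The number of members passing with the 2-fold rule was 0 across lines, 0 in E3H and 0 in E4H. On adjusted p alone, 1 member passed in E3H, and this number was 2 with DESeq2 and 0 with no filter, limma on log2(FPKM + 1), the replicate block, the fit on all 6 groups and both scalings, and 0 to 4 without 1 mouse. On adjusted p alone, 2 members passed in E4H, and this number was 0 with the replicate block, 1 in the fit on all 6 groups and 0 with the glutamatergic scaling, and 0 to 5 without 1 mouse. With limma on log2(FPKM + 0.1) in E3H, Rgs14 passed in place of Dsp.

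Genes passing in E2H numbered 690 with DESeq2, 70 with no filter, 94 with limma on log2(FPKM + 1), 246 with the replicate block, 557 in the fit on all 6 groups, 447 with the pan-neuronal and 96 with the glutamatergic scaling, and 31 to 142 without 1 mouse. In E3H they numbered 2468 with DESeq2, 554 with no filter, 651 with limma on log2(FPKM + 1) and 529 with the replicate block, and 113 to 2584 without 1 mouse. In E4H they numbered 1249 with the replicate block and 8032 with the glutamatergic scaling, and 1189 to 3402 without 1 mouse.

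Mice with the same replicate number were not treated as pairs. Over 9 pairs with the same number, the correlation of deviations from group means ran from -0.18 to 0.46, 4 were over 0.1 and 5 were best with their own number. Low counts of Tdo2, 23 to 153 per mouse, limit its precision.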

Other observations

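Within single APOE lines, the other granule neuron genes that passed with edgeR were 0 of 10 in PS/E2H, 2 of 10 in PS/E3H and 4 of 10 in PS/E4H mice, each against its parental line, all of them lower. The other CA1 genes gave 0, 1 and 3 of 7 lower in the same order, and the CA3 genes 0, 0 and 2 of 6. Glutamatergic genes gave 0, 0 and 4 of 5 lower. Microglial genes gave 3, 7 and 7 of 8 higher and astrocyte genes 1, 7 and 7 of 8. Of all genes tested, 0.669%, 3.35% and 8.62% passed and were higher, and 0.0825%, 2.02% and 6.98% passed and were lower. Differences between lines in these list counts were not tested.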
